A study of Mus musculus with 10 samples.

Results

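The comparison set 2 arrays titled as G9a-deleted against 2 arrays of G9a-deleted cells that received an empty vector (delta), 4 of the 10 arrays of the series. The arrays were chosen by their titles alone, with no measured value used. All 10 arrays measured total RNA of mouse embryonic fibroblasts (MEFs), connective tissue cells that grow out of mouse embryos, on an Affymetrix array whose probe sets read the 3′ part of messenger RNAs. The other 6 arrays, 2 per group, came from G9a-deleted MEFs that got G9a back with a FLAG tag: the wild type (WT), K165A or the catalytic mutant H1093K, and they serve here as a reference for how far apart groups of this series lie. The labels give every group the same tissue and the loss of G9a as a shared background. For the arrays titled deleted they name no vector, no parent line, no passage and no clone, and whether delta and deleted cells derive from one culture is not given in the sources. The way G9a was deleted and the mouse strain are not given either.

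G9a, encoded by Ehmt2, adds methyl groups to a lysine of histone H3, a mark of silent genes, and works as a partner of the related enzyme encoded by Ehmt1. Loss of the enzyme is known to release a set of genes from silencing, germline genes among them. Fibroblasts from different parts of an embryo carry different sets of Hox and other positional transcription factors, which they keep in culture.

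Signals are the authors' scaled array intensities. Differences are given as log2(signal + 16), deleted minus delta, from a linear model over all 10 arrays, and a gene is called where its Benjamini-Hochberg adjusted p in limma lies under 0.05. Each gene is read from its brightest probe set, after probe sets in the dimmest 40% by mean over the 10 arrays had been left out. The median signal was 181.1 to 199.6 on all 10 arrays, and Pearson's r between the arrays of each pair, taken over probe sets and so a description only, was 0.984 to 0.989. The ratio of 3′ to 5′ signal was 0.741 to 0.794 for Gapdh on the 10 arrays. For beta-actin it was 1.35 and 1.25 in the arrays titled deleted, 1.19 in both delta arrays and up to 1.36 elsewhere. The labels do not tell whether the paired arrays stand for separate cultures, so p-values measure the spread between arrays alone, and that may be technical. With 2 arrays against 2, an exact permutation test of a single gene cannot give a p below 0.333, and none is reported. Beyond the genes taken by a rule of size and p, further list members are named as examples, and these were chosen after their values had been seen.

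The targeted gene went against the title. By its tested probe set, Ehmt2 read 1678 and 1749.7 in the arrays titled deleted, 473 and 415 in delta, 676 and 620.4 in WT, 704 and 725 in K165A and 461 and 494 in H1093K. Both arrays titled deleted lay above all 8 others, 3.77-fold above delta (log2 difference 1.91, 95% interval 1.71 to 2.12, adjusted p = 2.98e-07). A dimmer Ehmt2 probe set that was not tested read 162 and 247 in the arrays titled deleted and 7.13 and 36.5 in delta, and the other 6 arrays, at 40.9 to 178, overlapped the deleted arrays. The sources do not say whether these probes read the deleted exons. What state of the gene, and which cells, the title stands for cannot be told from these values, so "titled deleted" is used here as a name and not as a genotype.

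Ehmt2 lies inside the major histocompatibility region, and its neighbours lay at other levels than it did. Of the 15 tested genes on either side of it in the reference gene order, 1 was called higher, 6 lower and 23 neither. Over all genes tested 16.7% were called higher and 18.9% lower, so the lower share was near that of genes at large. The log2 differences of these neighbours were -1.08 to 0.31, with a median of -0.10. The Y-linked genes Eif2s3y, Kdm5d and Uty were present in all 10 arrays. Eif2s3y, a subunit of a translation initiation factor, read 669 and 559.7 in the arrays titled deleted, 775 and 711 in delta and 738 to 876 in the other 6 arrays. None of the 3 tested Y-linked genes was called (adjusted p = 0.0645 to 0.903), but with the replicate block Eif2s3y was called lower (adjusted p = 0.0212). Of the Xist probe sets, 2 read at most 24.4 on any array, and the third read 118 and 68.9 in the arrays titled deleted and 88.5 and 83.3 in delta. The senescence regulator Cdkn2a read 676 and 730.0 in the arrays titled deleted, 891 and 787 in delta and 804 to 1049 in the other 6 arrays, a difference that was not called (adjusted p = 0.0924).

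The main structural markers of fibroblasts did not pass the test, while other members of the same list lay apart in both directions. Col1a1, the main chain of type I collagen, read 8274 and 8994 in the arrays titled deleted, 7499 and 9693 in delta and 7011 to 9418 in the other 6 arrays, with a log2 difference of 0.02 (95% interval -0.32 to 0.35). Vimentin (Vim) differed by -0.39 (-0.73 to -0.04) and fibronectin (Fn1) by -0.15 (-0.49 to 0.19), neither called. The summed signal of 29 fibroblast and mesenchymal markers was 83227 to 91658 in the arrays titled deleted, 86314 to 98579 in delta and 81321 to 100790.0 over all 8 other arrays, so the groups overlapped. In bulk RNA, fewer cells of a type and less RNA per cell cannot be told apart. Of the 23 markers tested, 8 were called higher (34.8%) and 6 lower (26.1%), with a median of -0.09, beside 16.7% and 18.9% over all genes tested. Leaving out deleted replicate 1 took the lower count to 3.

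Single markers of the list differed by more. S100a4, a calcium-binding protein used as a fibroblast marker, read 1151 and 1255 in the arrays titled deleted, 6148 and 7178 in delta and 4725 to 6691 in the other 6 arrays, and was 5.47-fold lower in the arrays titled deleted, below every other array (adjusted p = 1.08e-07). Col3a1 read 7468 and 9561 in the arrays titled deleted, 2220.5 and 2739 in delta and 2859 to 4899.7 in the other 6 arrays, and was 3.41-fold higher (adjusted p = 1.09e-05). Thy1, a surface glycoprotein of fibroblasts, was 1.57-fold lower than in delta, at 1070.3 and 1308 against 1711 and 2028, but lay within the range of the other 6 arrays (931 to 1744).

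Many markers of other cell types were dim. The summed signal of 23 endothelial markers was 1525 to 1703 in the arrays titled deleted, 1434 to 1822 in delta and 1362 to 1822 over all 8 other arrays, and 15 of them stayed below 100 on all 10 arrays. For 37 macrophage and leukocyte markers the sum was 2032 to 2775 in the arrays titled deleted, 2368 to 2423 in delta and 1755 to 2459 over all 8 other arrays, with 28 below 100 throughout. Neither sum separated the groups. Other sums did. For epithelial markers the sum over 46 genes was 16309 to 16628 in the arrays titled deleted, 11552 to 11971 in delta and 5188 to 11971 over all 8 other arrays, above every other array, with 22 genes below 100 throughout. That list holds Upk3b and Wt1, also known from mesothelium, at 4863 and 5399 and at 1294 and 1388 in the arrays titled deleted. On the other 8 arrays they read at most 42.0 and 12.5. Without Upk3b and Wt1 the sum in the arrays titled deleted would lie below delta. Its place above every other array thus rests on these genes. Msln, of the same list, was lower. Endothelial and leukocyte lists had 5 and 6 tested members, with 1 higher and 1 lower in the first and 0 higher and 1 lower in the second. Over all genes tested 16.7% were higher and 18.9% lower. These calls (Egfl7, Plvap and Cd74) were each lost when some single arrays were left out. Without the filter 0 of 23 endothelial markers were higher and 1 lower (4.35%). Of 37 leukocyte markers 4 were then higher (10.8%) and 1 lower (2.70%), beside 12.2% and 11.6% over all genes. For 33 adipocyte and lipid genes the sum was also above every other array, 33128 to 33928 in the arrays titled deleted, 27722 to 28075 in delta and 25819 to 28502 over all 8 other arrays. It was below every other array for 47 neuronal genes, 13992 to 14405 in the arrays titled deleted, 14453 to 14464 in delta and 14453 to 16707 over all 8 other arrays, and for 41 skeletal and cardiac muscle genes, 3198 to 3419 in the arrays titled deleted, 3797 to 4076 in delta and 3797 to 4619 over all 8 other arrays. Of these lists 7, 29 and 31 genes stayed below 100 throughout. The part of these genes in other results was not tested.

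Much of what was measured differed between the groups, in nearly equal numbers each way. Of 13575 probe sets tested, 4475 were called (33.0%), 2115 higher (15.6%) and 2360 lower (17.4%) in the arrays titled deleted. By gene, 2755 of 7738 were called (35.6%), 1292 higher (16.7%) and 1463 lower (18.9%), and the median log2 difference over all genes tested was -0.01. Over 2-fold lay 268 genes higher and 276 lower, over 4-fold 75 and 43, and over 8-fold 25 and 9. In 5385 genes (69.6%) both arrays titled deleted lay beyond both delta arrays, and in 3279 (42.4%) they lay beyond all 8 other arrays. Among the 544 called genes over 2-fold, 499 lay beyond all 8 others. Of 1124 called genes with several tested probe sets, 1035 had all of them on one side. Where each array was centred on its own median, which shifts the difference by -0.07, the share of called probe sets that were higher was 35.6% in place of 47.3%.

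**Figure D1:**
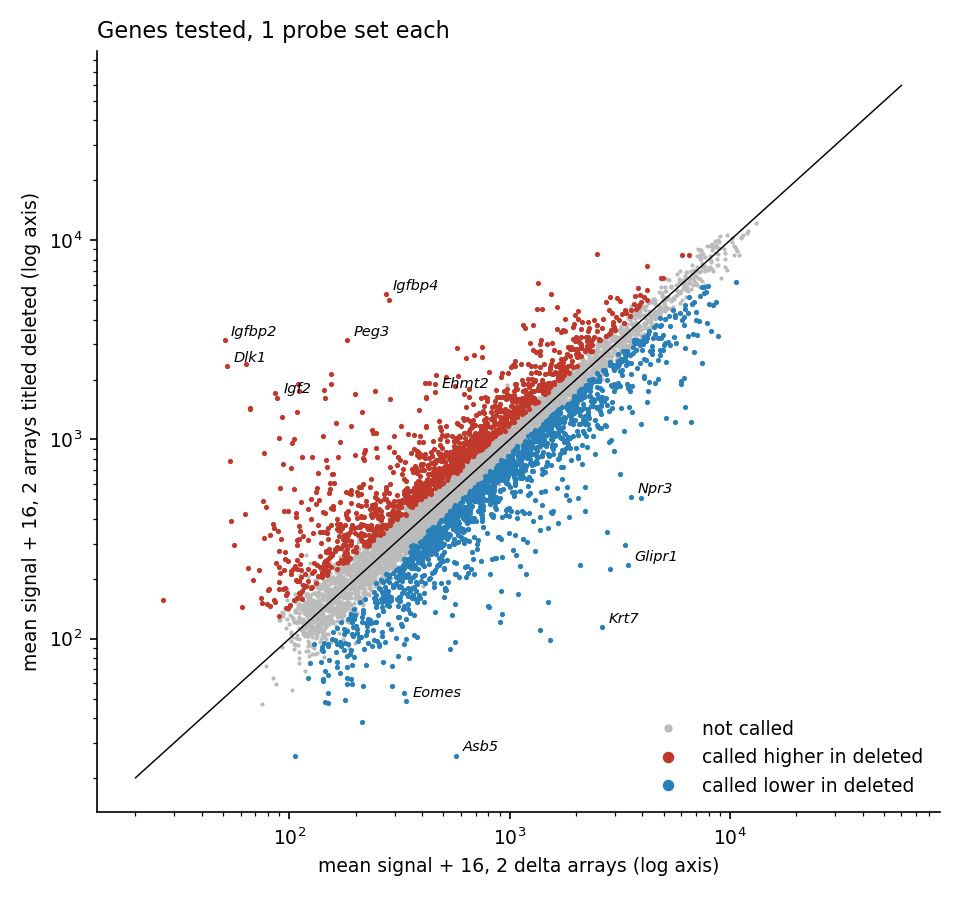
Mean signal + 16 of each of the 7738 genes tested, in the 2 delta arrays (x axis) and the 2 arrays titled deleted (y axis), both on log axes, 1 point per gene; the line marks equal signal. Called genes lie on both sides, 1292 above the line and 1463 below it.

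The largest rises lay between 14.0-fold and 62.9-fold, and all 15 of these genes were brighter in the arrays titled deleted than in any other array. Igfbp2, a secreted binding protein for insulin-like growth factors, read 3109.6 and 3185 in the arrays titled deleted, 41.8 and 27.8 in delta and 34.0 to 546 in the other 6 arrays, a 62.9-fold difference (log2 5.97 ± 0.18 SE, adjusted p = 2.24e-08). Dlk1, a membrane protein of fetal tissue that holds back fat cell differentiation, read 2129 and 2525 in the arrays titled deleted, 43.0 and 29.3 in delta and 34.7 to 63.4 in the other 6 arrays (5.50 ± 0.23, adjusted p = 1.32e-07). Both arrays titled deleted lay above every other array for each of these genes, and by a wide margin.

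Further genes followed the same pattern, high in the arrays titled deleted and low in the 8 others. Pdpn, podoplanin, a mucin-type surface protein of mesothelium and lymphatic vessels, was 21.6-fold higher than in delta, at 1321 and 1483 against 60.2 and 40.4. Postn, periostin, a matricellular protein, was 20.6-fold higher, and Syce2, a protein of the synaptonemal complex of meiotic chromosomes, 17.4-fold. Mdk, the heparin-binding growth factor midkine, was 15.1-fold higher and Gsta4, a glutathione transferase, 14.5-fold. Itm2a, a membrane protein of cartilage and muscle precursors, was 14.0-fold higher. The adjusted p of these 6 genes was 3.51e-08 to 3.84e-05.

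A further set of the largest rises was graded, with WT and K165A between the extremes and H1093K near delta. Fbn2, a fibrillin of matrix microfibrils, read 1304 and 1534 in the arrays titled deleted, 632 and 647 in WT, 463 and 554 in K165A, 49.7 and 46.6 in H1093K and 57.9 and 42.3 in delta. Bmp4, a secreted morphogen, read 1735 and 1753, 623 and 739, 577 and 507, 153 and 172 and 82.2 and 107 in the same order. Timp3, an inhibitor of matrix proteases bound to the matrix, read 4956 and 5058, 1092.7 and 1212, 1033 and 1101, 473 and 525 and 253 and 283. In all 3 genes the deleted arrays lay above WT and K165A, and these above H1093K and delta, with no overlap between those levels. Against delta, Fbn2 was 21.8-fold higher, Bmp4 16-fold and Timp3 17.7-fold (adjusted p = 4.25e-08, 4.25e-08 and 3.07e-09).

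**Figure D2:**
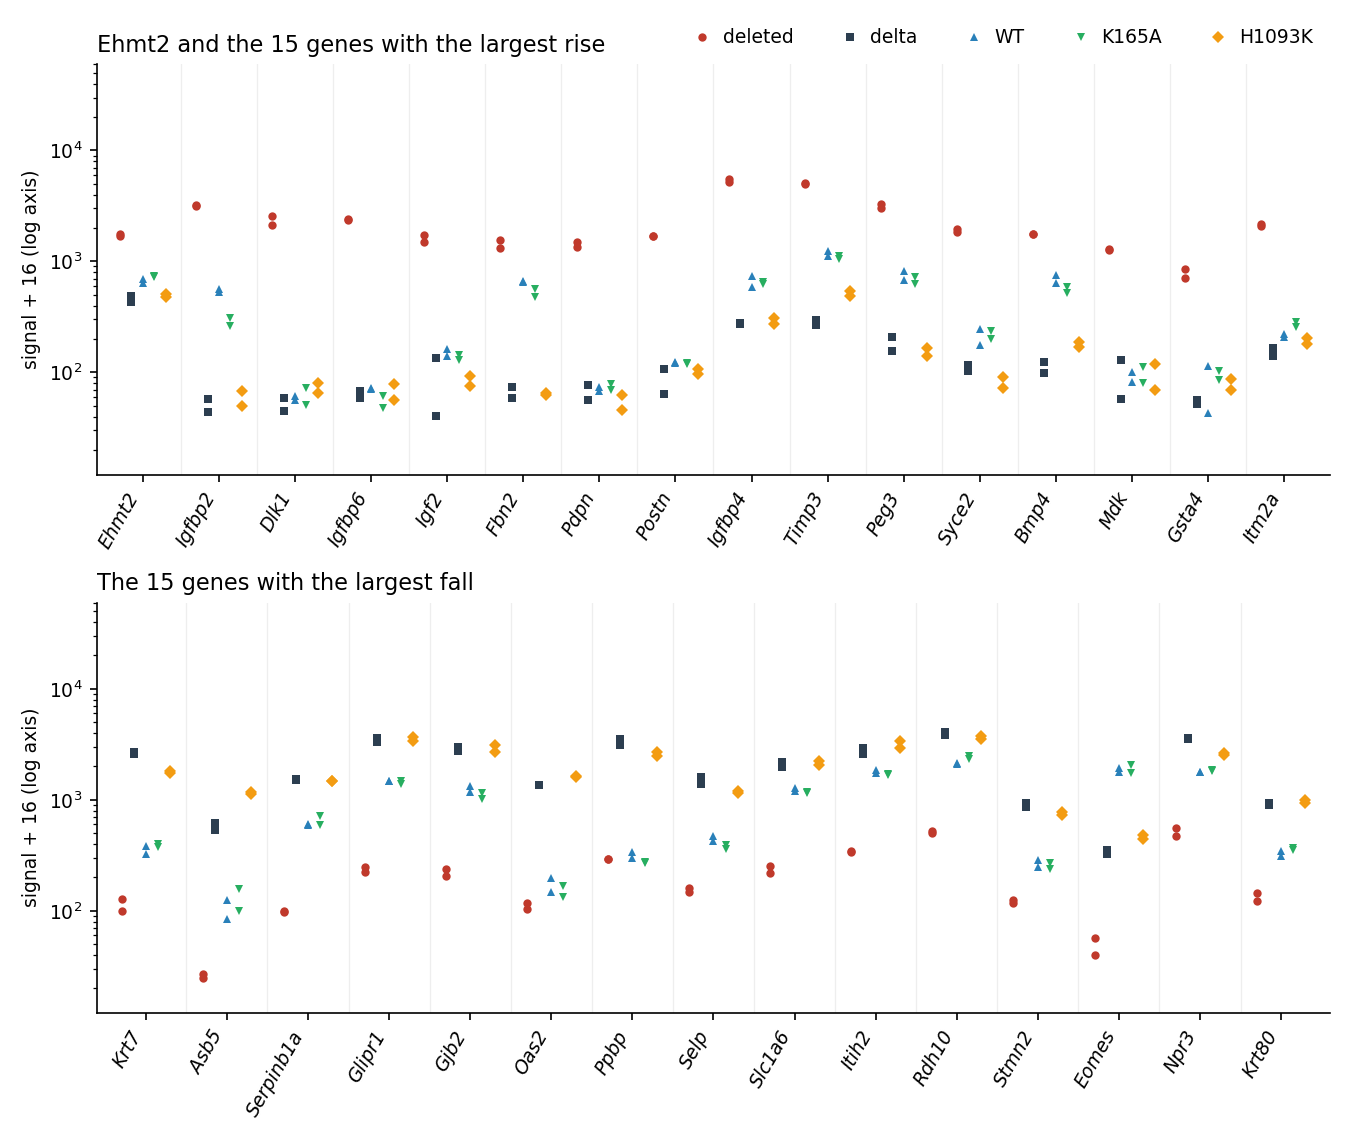
Signal + 16 on a log axis in each of the 10 arrays (1 point per array, colour and shape by group) for Ehmt2 and the 15 genes with the largest rise (upper panel) and the 15 with the largest fall (lower panel) in the arrays titled deleted against delta. The red points of the arrays titled deleted stand apart from delta in all 31 genes, while WT and K165A lie at the delta level in some genes and between the extremes in others.

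The largest falls included keratin, gap junction, protease inhibitor and antiviral genes, beside genes of many other roles. Krt7, a keratin of simple epithelia, read 83.1 and 113 in the arrays titled deleted, 2659.8 and 2557 in delta and 309.6 to 1804 in the other 6 arrays, and was 23.2-fold lower than in delta (log2 -4.54 ± 0.13 SE, adjusted p = 1.72e-08). Serpinb1a, an inhibitor of neutrophil proteases, read 82.9 and 81.9 in the arrays titled deleted, 1524 and 1480.3 in delta and 574 to 1476 in the other 6 arrays, 15.4-fold lower. Gjb2, the gap junction protein of the connexin family, read 223 and 190.0 in the arrays titled deleted, 2711 and 2949 in delta and 1007 to 3074 in the other 6 arrays, 12.8-fold lower. The arrays titled deleted lay below all 8 others in each of these genes, and WT and K165A lay below delta and H1093K.

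Asb5, a substrate adaptor of ubiquitin ligases, read 8.61 and 11.1 in the arrays titled deleted, 598 and 515 in delta and 69.1 to 1154 in the other 6 arrays; the deleted level is too near background for a fold. Glipr1, a secreted protein of the pathogenesis-related family, was 14.8-fold lower, Selp, the adhesion receptor P-selectin, 9.77-fold and the glutamate transporter Slc1a6 8.83-fold. Itih2, which modifies hyaluronan of the matrix, was 8.0-fold lower, Stmn2, a neuronal regulator of microtubules, 7.43-fold, the natriuretic peptide clearance receptor Npr3 6.94-fold and the keratin Krt80 6.91-fold. Eomes, a T-box transcription factor of early mesoderm, read 40.5 and 24.2 in the arrays titled deleted, 306 and 339 in delta and 1776 and 1919 in WT. For Eomes delta lay between deleted and WT, whereas for Fbn2 WT lay between deleted and delta.

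Further genes bright in the arrays titled deleted alone fell under the filter on dim probe sets, which takes the mean over all 10 arrays. The filter left out 9051 probe sets; in 120 of those with 1 gene, both arrays titled deleted read over 100 and over 4 times the highest of the 8 other arrays. Without the filter, 1511 of 12384 genes were called higher (12.2%) and 1431 lower (11.6%). Since the mean is taken over 8 arrays of other groups and 2 titled deleted, genes bright in the latter alone tend to fall under the filter. Counts among the probe sets left out therefore lean towards higher and are not read as a result. The genes that follow in this paragraph and the next were chosen after their values had been seen, and their adjusted p comes from the fit without the filter. Upk3b, a uroplakin, a membrane protein of urothelium and mesothelium, read 4863 and 5399 in the arrays titled deleted, 17.9 and 36.6 in delta and 2.35 to 42.0 in the other 6 arrays (adjusted p = 6.62e-06). Wt1, the transcription factor of kidney and mesothelium known from Wilms tumour, read 1294 and 1388 in the arrays titled deleted, 10.2 and 12.5 in delta and 1.36 to 12.3 in the other 6 arrays (adjusted p = 7.70e-07). Each was bright in both arrays titled deleted and near background in the other 8.

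The same held for genes with other roles. Ptn, the growth factor pleiotrophin, read 3571 and 3729 in the arrays titled deleted, 6.73 and 4.18 in delta and 0.907 to 24.99 in the other 6 arrays. Cdh11, a cadherin of mesenchyme, read 3013 and 3056 in the arrays titled deleted, 14.9 and 14.2 in delta and 11.1 to 67.5 in the other 6 arrays, and Ptgis, prostacyclin synthase, 2954 and 2772 in the arrays titled deleted, 8.57 and 6.13 in delta and 2.86 to 20.5 in the other 6 arrays. Pdgfra, the receptor for platelet-derived growth factor that marks fibroblasts, read 1628 and 1743 in the arrays titled deleted, 5.78 and 5.48 in delta and 27.6 to 81.7 in the other 6 arrays in 1 probe set, and the proteoglycan decorin, Dcn, read 1357 and 1519 in the arrays titled deleted, 8.24 and 32.1 in delta and 5.28 to 54.0 in the other 6 arrays. Pdgfra, Cdh11 and Dcn, known from fibroblasts and mesenchyme, were thus dim in delta and in the reconstituted cells. Of the 29 fibroblast and mesenchymal markers with a probe set, 13 were called higher (44.8%) and 4 lower (13.8%) without the filter. Over all genes those shares were 12.2% and 11.6%. Genes of mesoderm or coelomic lining among those called higher were Gata4 (336 and 369.6 against 45.4 and 46.9), Tcf21 (286 and 254 against 5.44 and 8.49) and Aldh1a2, which makes retinoic acid (520.3 and 413 against 1.34 and 3.11). Bnc1, Upk3b, Wt1 and Msln are all genes of mesothelium, but Msln, mesothelin, went the other way: it read 1109 and 1238 in the arrays titled deleted, 3877 and 3964 in delta and 1618 to 3799 in the other 6 arrays, 3.31-fold lower (adjusted p = 4.92e-07). No cell type is named from these genes.

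Insulin-like growth factors, their binding proteins and other growth factors were more often called higher than genes at large. Of 47 such genes tested, 24 were higher (51.1%), 9 lower (19.1%) and 14 not called, with a median of 0.45, against 16.7% higher, 18.9% lower and a median of -0.01 over all genes. With the filter at the 60th percentile, which removes the dimmer members, 10 were higher. Members bright in the arrays titled deleted alone can pass the filter through these arrays, which can raise the higher share. Without the filter 31 of 62 were higher and 10 lower, beside 12.2% and 11.6% over all genes. The ligand Igf2 read 1485 and 1731 in the arrays titled deleted, 119.8 and 24.2 in delta and 59.8 to 146 in the other 6 arrays, and was 21.9-fold higher (log2 4.45, 95% interval 3.49 to 5.42). Its delta arrays differed from each other, and both still lay far below the arrays titled deleted. Igf1 read 392.2 and 354 in the arrays titled deleted, 28.7 and 48.1 in delta and 71.2 to 172 in the other 6 arrays, 7.26-fold higher.

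The binding proteins, which hold these ligands in the extracellular space, split. Igfbp4 read 5199 and 5513 in the arrays titled deleted, 262 and 255 in delta and 257 to 727 in the other 6 arrays, and was 19.6-fold higher, and Igfbp6, which prefers Igf2, read 2371 and 2369 in the arrays titled deleted, 51.3 and 43.1 in delta and 32.0 to 63.0 in the other 6 arrays, 37.8-fold higher. Igfbp7 read 1302 and 1563 in the arrays titled deleted, 5668 and 6749.6 in delta and 2056 to 6096 in the other 6 arrays, 4.30-fold lower. Igfbp5 read 171 and 114 in the arrays titled deleted, 242 and 57.8 in delta and 90.2 to 162 in the other 6 arrays and was not called, with delta arrays far apart. A second Igfbp5 probe set, left out by the filter, read 649 and 667 in the arrays titled deleted, 32.3 and 23.4 in delta and 25.5 to 62.5 in the other 6 arrays, so that the deleted arrays stood above all 8 others there and the probe sets disagree. Downstream, the adaptor Irs1 was 1.69-fold higher, the receptor Igf2r 1.28-fold higher and the vascular ligand Vegfa 3.66-fold higher, at 888 and 887 against 238 and 224. The axon guidance ligand Sema3a was 2.74-fold lower.

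Imprinted genes, which are expressed from a single parental copy, were called higher more often than lower. Of 21 tested, 12 were called higher (57.1%), 2 lower (9.52%) and 7 not, with a median of 0.35, beside 16.7% higher and 18.9% lower over all genes tested. With the filter at the 60th percentile 7 were higher. Members bright in the arrays titled deleted can pass the filter through these arrays. Without it 15 of 39 were higher (38.5%) and 2 lower (5.13%), beside 12.2% and 11.6% over all genes. Meg3, a noncoding RNA of the same cluster as Dlk1, read 1845 and 1658 in the arrays titled deleted, 119 and 137 in delta and 100.5 to 147 in the other 6 arrays, 12.3-fold higher (adjusted p = 2.79e-07), and a further Meg3 probe set left out by the filter read 946 and 799 in the arrays titled deleted, 11.8 and 9.84 in delta and 5.78 to 13.3 in the other 6 arrays. Meg3 and Dlk1 are expressed from opposite parental copies, and both stood above all 8 other arrays. Peg3, a zinc finger protein, read 3009.9 and 3278 in the arrays titled deleted, 194 and 139 in delta and 124 to 809 in the other 6 arrays, 17.5-fold higher. Plagl1, a zinc finger regulator of other imprinted genes, was 2.96-fold above delta but, at 3673 and 3794, below WT at 5845 and 5095. Cdkn1c, an inhibitor of the cell cycle, was 1.62-fold lower, and Gatm, an enzyme of creatine synthesis, 2.45-fold.

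Hox genes, which encode positional identity along the body axis, differed in both directions. Genes with low numbers are expressed towards the head and genes with high numbers towards the tail and the ends of the limbs. Hoxa9 read 383 and 346 in the arrays titled deleted, 1717 and 1563 in delta and 1396 to 1578 in the other 6 arrays, and was 4.35-fold lower in the arrays titled deleted (adjusted p = 1.32e-07). Hoxa10 read 354 and 223 in the arrays titled deleted, 1210.5 and 1162 in delta and 926 to 1241 in the other 6 arrays, 4.04-fold lower. Hoxd13, the last gene of its cluster, read 369 and 424 in the arrays titled deleted, 898 and 1057 in delta and 898 to 1413 in the other 6 arrays, 2.41-fold lower. In these genes the 8 other arrays lay close together, and the arrays titled deleted stood below them all.

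In the opposite direction, Hoxb and Hoxc genes that were near background in the 8 other arrays were read in both arrays titled deleted. Hoxc8 read 313 and 264 in the arrays titled deleted, 4.01 and 2.14 in delta and 3.51 to 12.6 in the other 6 arrays, and Hoxb2 read 446 and 442 in the arrays titled deleted, 15.2 and 40.3 in delta and 7.64 to 73.1 in the other 6 arrays (adjusted p = 4.09e-06 and 0.000782 without the filter). Hoxb3, Hoxb4, Hoxb6, Hoxb9, Hoxc6, Hoxc9, Hoxa2 and Hoxa4 were called higher in that fit too. Of the 31 Hox genes with a probe set, 14 were higher and 6 lower without the filter, beside 12.2% higher and 11.6% lower over all genes. Of 18 genes numbered 8 or below, 11 were higher and 0 lower; of 13 numbered 9 or above, 3 (Hoxb9, Hoxc9 and Hoxd12) were higher and 6, all in the Hoxa and Hoxd clusters, lower. That split was made after the values had been seen. With the filter, 16 genes of the list of Hox genes and cofactors were tested, 6 higher (37.5%) and 8 lower (50%), beside 16.7% and 18.9% over all genes tested. Most of the Hox genes called higher fall under that filter, and at the 60th percentile the counts were 2 and 5. Hoxd9, below all 8 other arrays, was called lower with the filter and not without it. Of the cofactors, Meis2 read 639 and 668 in the arrays titled deleted, 133 and 147 in delta and 75.6 to 123 in the other 6 arrays (4.29-fold higher), and Meis1 read 418 and 432 against 57.9 and 66.9 in delta.

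**Figure D3:**
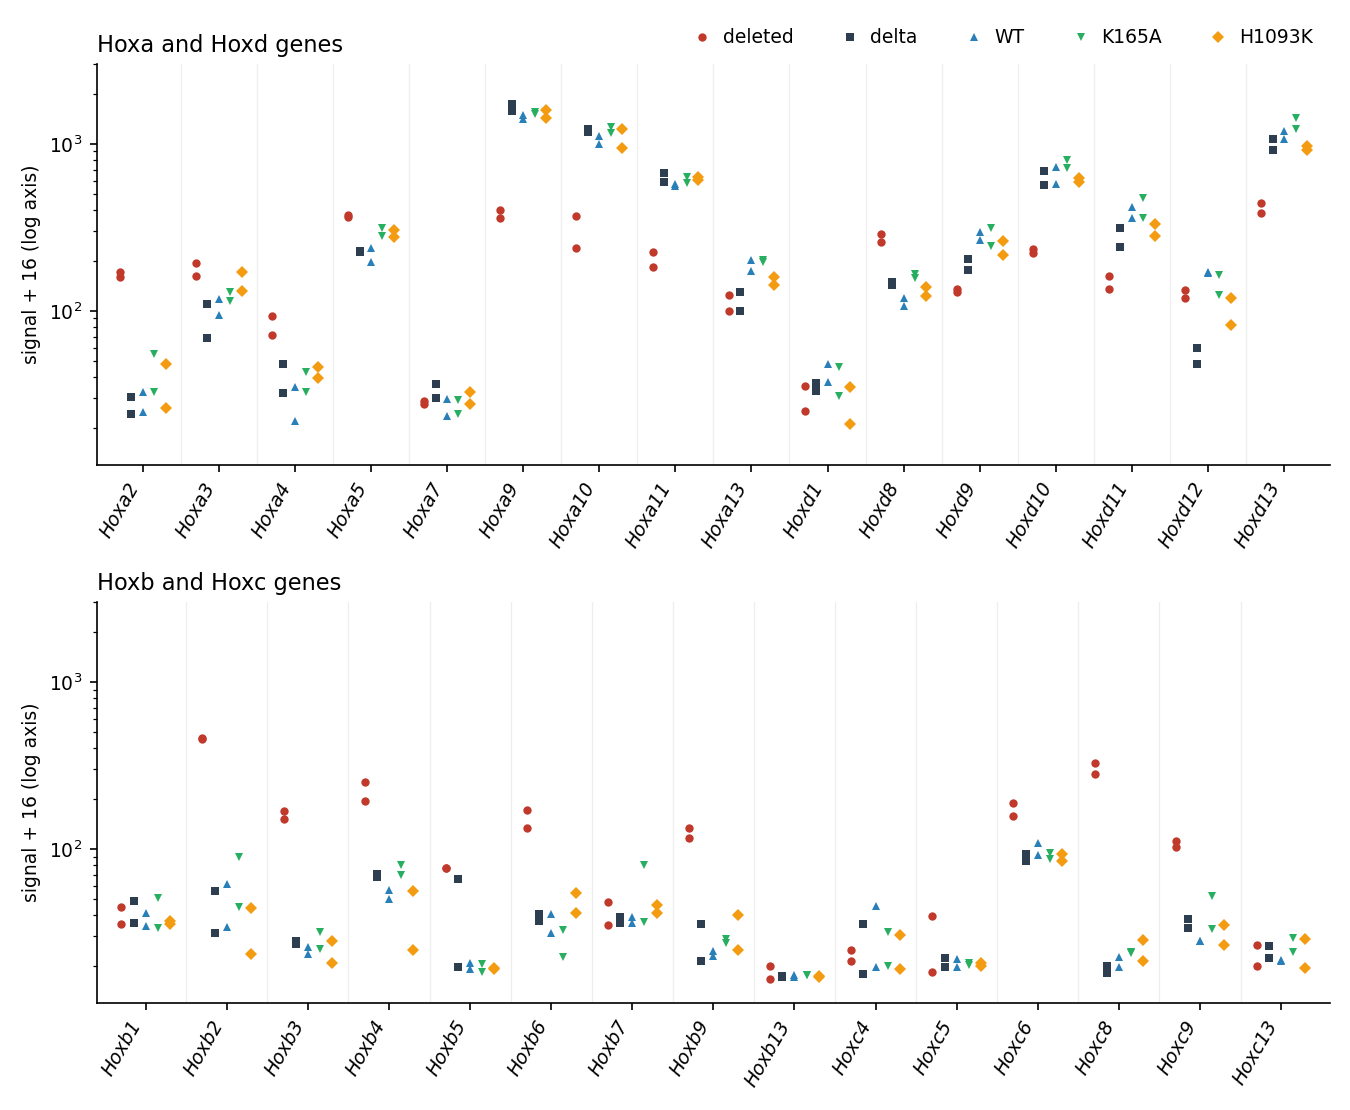
Signal + 16 on a log axis of the 31 Hox genes with a probe set, in each of the 10 arrays (1 point per array, colour and shape by group), Hoxa and Hoxd clusters above, Hoxb and Hoxc clusters below, in order of number. The arrays titled deleted lie below the other 8 for Hoxd9, Hoxa9, Hoxa10, Hoxa11, Hoxd10, Hoxd11 and Hoxd13, and above them for, among others, Hoxa2, Hoxb2, Hoxb3, Hoxb4, Hoxb6, Hoxb9, Hoxc6, Hoxc8 and Hoxc9.

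Other positional factors also split. Of 16 transcription factors of limb and trunk position tested, 5 were called higher (31.25%) and 6 lower (37.5%), beside 16.7% and 18.9% over all genes tested. At the 60th percentile filter the counts were 2 and 3. Without the filter 13 of 46 were higher (28.3%) and 7 lower (15.2%), beside 12.2% and 11.6% over all genes. The order of the counts thus changed with the filter. Gata6, a regulator of visceral mesoderm, read 1701 and 2055 in the arrays titled deleted, 381 and 501 in delta and 476 to 671 in the other 6 arrays, 4.16-fold higher (adjusted p = 7.32e-06). Irx3 read 515 and 544 against 139 and 92.9 in delta, 4.19-fold higher, but WT, at 418 and 457, came close to the deleted level. Tbx5, the T-box factor of forelimb and heart, read 126 and 151 in the arrays titled deleted, 246 and 269 in delta and 232 to 402 in the other 6 arrays, 1.78-fold lower. Foxc1 was 1.94-fold lower and Lhx2, a factor of limb outgrowth, 1.90-fold lower. The arrays titled deleted lay below all 8 others for Tbx5, Foxc1 and Lhx2.

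Matrix genes lay on both sides. Of 20 collagen genes, 9 were higher (45%) and 4 lower (20%, median 0.07), beside 16.7% and 18.9% over all genes tested. Of 54 other matrix genes, 17 were higher (31.5%) and 21 lower (38.9%, median -0.16), or 11 higher with the filter at the 60th percentile. Without the filter the order changed: 26 of 75 were higher (34.7%) and 21 lower (28.0%), beside 12.2% and 11.6% over all genes. Col6a3, a chain of a microfibrillar collagen, read 1188 and 1197 in the arrays titled deleted, 150.03 and 143 in delta and 172 to 793 in the other 6 arrays, 7.45-fold higher. Col5a3 read 443 and 461 in the arrays titled deleted, 1359 and 1399.5 in delta and 1195 to 1621 in the other 6 arrays, 2.98-fold lower. The basement membrane chains Col4a1 and Col4a2 were both lower (1.55-fold and 1.54-fold) and Col4a6 was higher (3.64-fold).

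Among the glycoproteins, Efemp1, a fibulin of elastic fibres, read 1949 and 1822 in the arrays titled deleted, 159 and 118 in delta and 151 to 219.5 in the other 6 arrays, 12.4-fold higher, while Mfap5, a microfibril protein, read 897 and 818 in the arrays titled deleted, 2879 and 3049.5 in delta and 2654 to 3369.6 in the other 6 arrays, 3.41-fold lower. The proteoglycan versican (Vcan) was 2.77-fold higher. Tenascin C (Tnc), a matrix protein of wound repair, was 2.85-fold lower and Lama2, a laminin chain, 3.43-fold lower. Of 27 matrix proteases and inhibitors, 8 were higher (29.6%) and 10 lower (37.0%), beside 16.7% and 18.9% over all genes tested. Leaving out delta replicate 2 took the lower count to 5, and the filter at the 60th percentile took the higher count to 5. Serpinf1, a secreted antiangiogenic serpin, read 4437 and 4544 in the arrays titled deleted, 1316 and 1299 in delta and 1256 to 1487 in the other 6 arrays, 3.40-fold higher, and Adamts5, a protease of proteoglycans, read 916 and 1003 in the arrays titled deleted, 2692 and 2923 in delta and 2132 to 2404 in the other 6 arrays, 2.89-fold lower. Timp1 was 1.80-fold lower, opposite to Timp3.

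Actin cytoskeleton and smooth muscle genes were lower together. Of 22 tested, 19 were called lower (86.4%, beside 18.9% over all genes), 0 higher and 3 not called, with a median of -0.69. In 18 of the 22 the arrays titled deleted lay beyond all 8 others, beside 42.4% of all genes tested. Without the filter 19 of 32 were lower (59.4%) and 1, Itga8, higher, beside 11.6% and 12.2% over all genes. The summed signal of the 32 genes with a probe set was 57745 to 59857 in the arrays titled deleted, 93533 to 100932 in delta and 83409.6 to 100932 over all 8 other arrays. Cnn1, the actin-binding protein calponin, read 259 and 232 in the arrays titled deleted, 1063 and 1046 in delta and 526 to 893 in the other 6 arrays, 4.10-fold lower (adjusted p = 2.55e-07). Csrp2, a LIM protein of smooth muscle, read 1948 and 2078 in the arrays titled deleted, 6026 and 6309 in delta and 5799.8 to 6558 in the other 6 arrays, 3.05-fold lower. Smooth muscle alpha-actin, Acta2, read 6158 and 6155 in the arrays titled deleted, 9313 and 11892 in delta and 8082 to 10592 in the other 6 arrays, 1.71-fold lower (95% interval of the log2 difference -1.14 to -0.40, adjusted p = 0.00571). Actg2, at 197 and 195, lay below delta (514 and 591) and above WT (59.5 and 48.7), unlike most of the list. The targets of growth factor and tension signalling Ccn2 (2.65-fold lower) and Thbs1 (1.85-fold lower) were below all 8 other arrays as well.

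Many contractile genes carry a CArG box, the site of serum response factor. Within the 250 bases upstream of the transcription start, on either strand, a CArG box was found in 5 of 29 genes of the list in the RefSeq promoter table (GRCm38.p6), or 17.2%, and in 1.62% of all 27025 genes in it. The called members with a match and the largest fall were Myl9, a myosin light chain, at chr2:156775278-156775337 (plus strand), Cnn2, a calponin, at chr10:79988519-79988578 (plus strand), and Vcl, vinculin, at chr14:20929148-20929205 (plus strand). They are shown 5′ to 3′ with the box in capitals.
Myl9: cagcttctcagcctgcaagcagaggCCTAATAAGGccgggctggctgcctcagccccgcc
Cnn2: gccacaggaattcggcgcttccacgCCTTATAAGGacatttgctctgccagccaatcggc
Vcl: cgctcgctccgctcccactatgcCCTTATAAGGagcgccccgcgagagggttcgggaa
Myl9 read 1896 and 1986 in the arrays titled deleted, 5839.9 and 6158 in delta and 5047 to 6626 in the other 6 arrays, 3.07-fold lower. Cnn2 was 1.37-fold lower and Vcl 1.26-fold lower. A match is a description of the letters and not evidence of binding.

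Interferon-stimulated genes, the antiviral program of the cell, were mostly lower. Of 50 tested, 34 were called lower (68.0%), 1 (Trim25, 1.84-fold) higher and 15 not called, with a median of -0.65, beside 18.9% lower and 16.7% higher over all genes tested. Oas2, which senses double-stranded RNA, read 87.2 and 101 in the arrays titled deleted, 1350.0 and 1354 in delta and 118 to 1623 in the other 6 arrays, 12.4-fold lower (adjusted p = 1.66e-07). Ifit3 read 744 and 736 in the arrays titled deleted, 2118 and 2115 in delta and 2876 to 3713 in the other 6 arrays, 2.82-fold lower, and the immunity-related GTPase Iigp1 read 513 and 505 in the arrays titled deleted, 1712 and 1841 in delta and 1556 to 2213 in the other 6 arrays, 3.41-fold lower. The list held genes of both kinds. In Oas2 the WT and K165A arrays were nearly as low as the deleted ones, and in Ifit3 they were above delta.

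Interferon-response elements hold a pair of GAAA repeats. The core GAAANNGAAA, searched on both strands of the 250 upstream bases, was found in 20 of 56 list genes in the promoter table (35.7%) and in 3.46% of all genes in it. Called members with a match and a large fall included Oas3 at chr5:120777700-120777759 (minus strand). Others were Trim30a, a tripartite-motif protein of innate immunity, at chr7:104465195-104465254 (minus strand), and Ifit3 at chr19:34583348-34583441 (plus strand). In the sequences, 5′ to 3′ along the gene, the core is in capitals, and Trim30a and Ifit3 carry it on the opposite strand.
Oas3: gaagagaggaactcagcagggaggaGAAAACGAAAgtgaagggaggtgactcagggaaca
Trim30a: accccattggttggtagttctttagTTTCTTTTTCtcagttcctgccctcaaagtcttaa
Ifit3: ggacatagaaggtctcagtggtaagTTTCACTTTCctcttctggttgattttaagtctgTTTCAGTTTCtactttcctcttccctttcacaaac
Oas3 read 75.5 and 70.5 in the arrays titled deleted, 385 and 659 in delta and 47.1 to 657 in the other 6 arrays, 5.85-fold lower than in delta, and the deleted arrays overlapped the WT and K165A arrays. Trim30a read 401 and 289 in the arrays titled deleted, 1522 and 1436 in delta and 451 to 957 in the other 6 arrays, 4.19-fold lower. The cores of Ifit3 are 2 in number.

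Antigen presentation and chemokines went the same way in part. Of 15 genes of class I antigen presentation, 8 were lower (53.3%, beside 18.9% over all genes tested), 0 higher and 7 not called (median -0.42). H2-D1, a classical class I heavy chain, read 3482 and 3179 in the arrays titled deleted, 6717 and 7378 in delta and 3391 to 6333 in the other 6 arrays, 2.11-fold lower, with 1 of the deleted arrays below every other array. H2-K1 was 1.75-fold lower than in delta and above WT and K165A. B2m, the shared light chain, differed by -0.37 (-0.75 to 0.01) and was not called. Class I alleles differ between mouse strains, and whether the probes read each allele equally is not given.

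Of 26 chemokines and inflammatory cytokines, 13 were lower (50%) and 6 higher (23.1%), beside 18.9% and 16.7% over all genes tested. The neutrophil chemokine Ppbp read 278 and 278 in the arrays titled deleted, 3119.6 and 3499 in delta and 252 to 2656 in the other 6 arrays, 11.3-fold lower than in delta and level with WT and K165A. Ccl7, a monocyte chemokine, read 104 and 56.2 in the arrays titled deleted, 557 and 537 in delta and 528 to 949 in the other 6 arrays, 6.05-fold lower and below all 8 others. Il1rn, the antagonist of the interleukin-1 receptor, was 3.56-fold lower, and Ptgs2, the inducible cyclooxygenase, 2.24-fold lower. Cxcl12, a stromal chemokine for stem cells and lymphocytes, read 6249 and 5894 in the arrays titled deleted, 1348 and 1296 in delta and 1504 to 2649.8 in the other 6 arrays, 4.55-fold higher and above all 8 others. Il33, an alarmin left out by the filter, read 988 and 1038 against 2.09 and 24.4.

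Genes of amino acid supply and stress were higher. This response runs through the transcription factor Atf4, which is made when amino acids run short or unfolded protein builds up, and which turns on genes of amino acid synthesis, import and tRNA charging. Of 49 genes tested, 30 were called higher (61.2%, beside 16.7% over all genes), 3 lower and 16 not called, with a median of 0.63, and 17 of them lay over 2-fold higher. Asns, asparagine synthetase, read 3889 and 3623 in the arrays titled deleted, 1085 and 1182 in delta and 429 to 1033 in the other 6 arrays, 3.28-fold higher (adjusted p = 2.73e-07). Phgdh, the first enzyme of serine synthesis, read 4406 and 4588 in the arrays titled deleted, 1423 and 1339 in delta and 1022 to 1313 in the other 6 arrays, 3.23-fold higher, and Cth, which makes cysteine, read 814 and 783 in the arrays titled deleted, 103 and 118 in delta and 65.2 to 90.5 in the other 6 arrays, 6.44-fold higher. All 3 stood above every other array.

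Regulators of the response were higher too. Atf4 itself read 4105 and 4679 in the arrays titled deleted, 1913 and 2121 in delta and 1986 to 2143 in the other 6 arrays, 2.17-fold higher, Ddit3 was 2.17-fold higher and Trib3, a pseudokinase that damps the response, 4.84-fold. The amino acid carriers Slc7a3 (9.61-fold) and Slc7a5 (2.74-fold) were higher, and so were the tRNA synthetases Aars (1.66-fold) and Gars (1.38-fold). The list also holds chaperones and stress sensors of the endoplasmic reticulum, and these lay on both sides. Dnajb9, a co-chaperone there, was 1.41-fold higher and the sensor Atf6 1.5-fold higher. Hspa5 differed by 0.13 (95% interval -0.15 to 0.41), not called, and Calr was 1.31-fold lower. The 3 genes called lower, Dnajb11, Manf and Calr, all belong to protein folding in that compartment.

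The core TGATGNAA, as in the composite site bound by Atf4 with a C/EBP factor, was found within the 250 upstream bases, on either strand, in 10 of 45 list genes (22.2%) and in 3.91% of all genes of the table. Called members with a match and a large rise included Vldlr, a lipoprotein receptor, at chr19:27216795-27216852 (plus strand). Others were Chac1, which breaks down glutathione, at chr2:119351024-119351081 (plus strand), and Asns at chr6:7693210-7693257 (minus strand). The core is in capitals, on the opposite strand in Vldlr and Chac1.
Vldlr: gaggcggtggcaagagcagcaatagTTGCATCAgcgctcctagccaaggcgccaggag
Chac1: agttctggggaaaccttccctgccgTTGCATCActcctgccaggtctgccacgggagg
Asns: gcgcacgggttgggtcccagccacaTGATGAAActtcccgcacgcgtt
Vldlr read 900.4 and 776 in the arrays titled deleted, 67.3 and 53.6 in delta and 40.9 to 72.3 in the other 6 arrays, 11.2-fold higher, and Chac1 read 1133 and 1071 in the arrays titled deleted, 260.3 and 179.6 in delta and 137 to 239 in the other 6 arrays, 4.81-fold higher. Neither overlapped any other array.

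**Figure D4:**
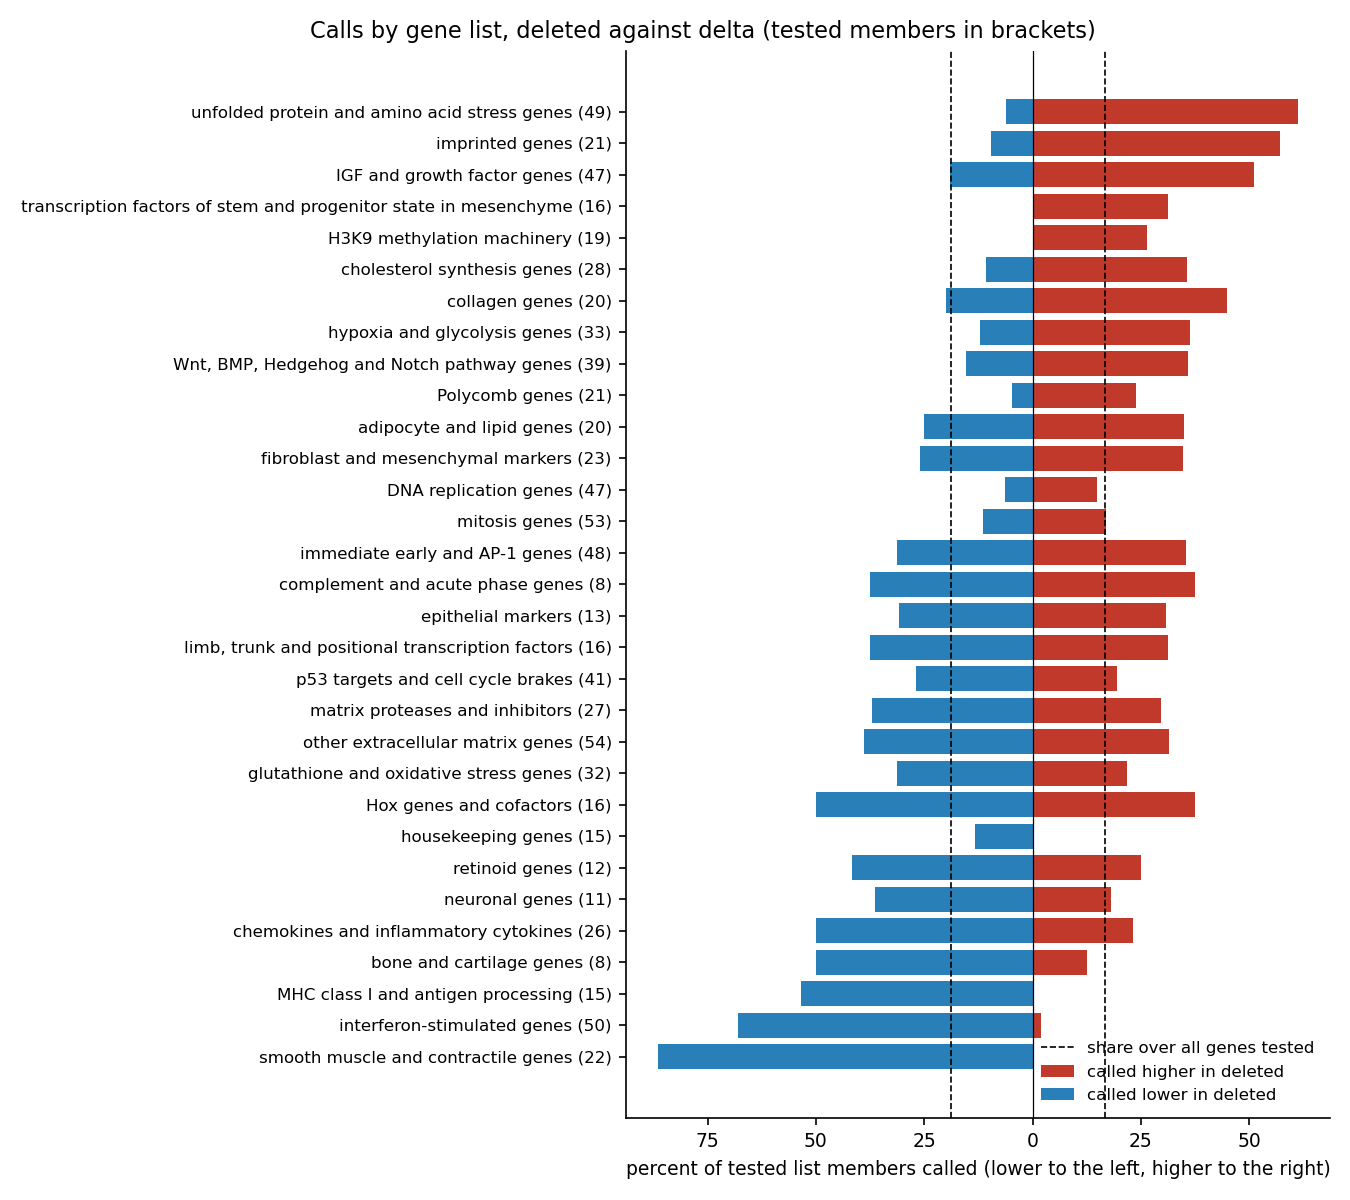
Percent of the tested members of each gene list (lists with 8 or more tested members, number in brackets) called higher (red, to the right) or lower (blue, to the left) in the arrays titled deleted against delta; dashed lines mark the shares over all genes tested, 16.7% and 18.9%. Amino acid stress, imprinted and growth factor genes extend furthest to the right, smooth muscle and interferon-stimulated genes furthest to the left.

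Metabolic genes lay on both sides. Of 33 hypoxia and glycolysis genes, 12 were higher (36.4%) and 4 lower (12.1%), beside 16.7% and 18.9% over all genes tested. Their median was 0.19, and 7 were higher with the filter at the 60th percentile. The lactate and pyruvate carrier Slc16a1 was 2.71-fold higher, at 2101 and 2209 against 692 and 887, and Ero1a, an oxidase of protein folding induced by low oxygen, 3.30-fold higher. Of 28 cholesterol and fatty acid genes, 10 were higher (35.7%) and 3 lower (10.7%, median 0.09), and leaving out deleted replicate 2 took the higher count to 6. Fads1, a fatty acid desaturase, was 1.41-fold higher. Of 32 glutathione and oxidative stress genes, 7 were higher (21.9%) and 10 lower (31.25%), or 4 higher without deleted replicate 2. Hmox1, heme oxygenase, was 2.0-fold lower and the metallothionein Mt2 1.83-fold lower. Mgst1, a membrane glutathione transferase below the filter, read 3717 and 3999.6 in the arrays titled deleted, 24.3 and 4.17 in delta and 7.61 to 25.2 in the other 6 arrays.

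Developmental signalling genes were called higher more often than lower. Of 39 genes of the Wnt, BMP, Hedgehog and Notch pathways, 14 were higher (35.9%) and 6 lower (15.4%), with a median of 0.23. Over all genes tested 16.7% were higher and 18.9% lower, so the lower share was near that of genes at large. Without the filter 26 (30.6%) and 8 (9.41%) of 85 were called, beside 12.2% and 11.6% over all genes. With the filter at the 60th percentile 8 were higher and 3 lower. The ligand Wnt5a read 402 and 439 in the arrays titled deleted, 95.5 and 69.1 in delta and 62.6 to 107 in the other 6 arrays, 4.48-fold higher. Gas1, a coreceptor for Hedgehog, read 5082 and 5664 in the arrays titled deleted, 1495 and 1552 in delta and 1511 to 3397 in the other 6 arrays, 3.50-fold higher. Hes1, Hey1 and Nrarp, known as targets of Notch, were among the 6 lower genes. Hes1 read 1187 and 1331 in the arrays titled deleted, 4909.8 and 5323 in delta and 3640.4 to 4818 in the other 6 arrays, 4.03-fold lower, Hey1 was 5.15-fold lower and Nrarp 5.47-fold lower. The receptor Notch3 was 2.57-fold higher.

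Retinoid genes, which make, carry and sense retinoic acid, went both ways. Of 12 tested, 3 were higher (25%) and 5 lower (41.7%), beside 16.7% and 18.9% over all genes tested. Without the filter 6 of 23 were higher (26.1%) and 5 lower (21.7%), beside 12.2% and 11.6% over all genes. Rdh10, which makes the precursor of retinoic acid, read 506 and 482 in the arrays titled deleted, 3792 and 4034 in delta and 2108 to 3739.8 in the other 6 arrays, 7.70-fold lower (adjusted p = 8.53e-09). Rbp4, the retinol carrier, read 1189.9 and 1219.5 in the arrays titled deleted, 5122 and 6154 in delta and 5833 to 6666 in the other 6 arrays, 4.61-fold lower, and the receptor Rarb was 2.07-fold lower. Crabp2, a cellular retinoic acid carrier, read 934 and 975 in the arrays titled deleted, 164 and 142 in delta and 158 to 227 in the other 6 arrays, 5.75-fold higher, and its relative Crabp1, below the filter, read 719 and 772 against 3.08 and 2.39.

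Epithelial genes also split. Of 13 epithelial markers tested, 4 were higher (Krt8, Krt18, Spint1 and Dsg2) and 4 lower (Krt7, Msln, Pkp2 and Perp). Each count was 30.8% of those tested, beside 16.7% higher and 18.9% lower over all genes. Krt8 and Krt18 form the keratin filaments of simple epithelia as a pair. Krt8 read 1577 and 1630.4 in the arrays titled deleted, 145 and 112 in delta and 57.2 to 138 in the other 6 arrays, 11.3-fold higher, and Krt18 read 2108 and 2035 in the arrays titled deleted, 583 and 553 in delta and 141 to 384 in the other 6 arrays, 3.57-fold higher. Dsg2, a desmosomal cadherin, was 3.59-fold higher, and Pkp2, a desmosomal plaque protein, 1.83-fold lower. E-cadherin, Cdh1, below the filter, read 31.9 and 16.1 against 135 and 77.4 in delta. Without the filter Cdh1 was called lower (adjusted p = 0.00579), while the keratin pair was higher.

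Genes of differentiated mesenchyme and of nerve cells showed no common direction. Of 20 adipocyte and lipid genes, 7 were higher (35%) and 5 lower (25%), beside 16.7% and 18.9% over all genes tested. Fabp4, a fatty acid carrier of fat cells, read 112 and 60.02 in the arrays titled deleted, 368 and 359 in delta and 108 to 587 in the other 6 arrays, 3.85-fold lower, and Klf4 was 4.66-fold higher. Of 8 bone and cartilage genes, 1 (Bmp4) was higher and 4 lower, with Runx1 2.09-fold lower. Without the filter 7 of 33 were higher (21.2%) and 4 lower (12.1%), beside 12.2% and 11.6% over all genes. Of 11 neuronal genes, 2 were higher and 4 lower, with nestin (Nes), an intermediate filament of progenitor cells, 2.19-fold lower. Without the filter 8 of 47 were higher (17.0%) and 4 lower (8.51%). In both lists the order of the 2 counts thus changed with the filter. Skeletal and cardiac muscle genes had 4 tested members, of which Mef2c was 2.37-fold higher, Mef2a 1.17-fold lower and Mef2d 1.32-fold lower, the calls of Mef2a and Mef2d both lost when either array titled deleted was left out, and that of Mef2a also without either delta array or with only the 4 arrays compared.

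Of 48 immediate early and AP-1 genes, which answer growth factors within minutes, 17 were higher (35.4%) and 15 lower (31.25%). Over all genes tested the shares were 16.7% and 18.9%. Jun read 4555 and 4613 in the arrays titled deleted, 1623 and 1623 in delta and 2647 to 4052 in the other 6 arrays, 2.81-fold higher, and Egr2, a zinc finger factor, read 1389 and 1332 in the arrays titled deleted, 219 and 175 in delta and 332 to 398 in the other 6 arrays, 6.50-fold higher. The feedback phosphatase Dusp6 was 2.09-fold higher. Hbegf, a ligand of the EGF receptor, read 1045 and 1131 in the arrays titled deleted, 3094 and 3453 in delta and 2999 to 3659 in the other 6 arrays, 2.98-fold lower, and Noct, an enzyme under circadian control, was 3.80-fold lower. Fos differed by 0.05 (-0.33 to 0.43) and was not called. Of 16 transcription factors of stem and progenitor state, 5 were higher (31.25%) and 0 lower (3 higher with the filter at the 60th percentile). Of 8 complement genes 3 were higher (37.5%) and 3 lower (37.5%).

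Genes of DNA replication and mitosis were called at shares near or below those over all genes. Of 47 DNA replication genes, 7 were higher and 3 lower (3 higher without deleted replicate 2), and of 53 mitosis genes 9 higher and 6 lower. The mitosis counts were unstable: 4 higher after median centring, 15 with the replicate block or with genes taken as the mean of their probe sets, 2 to 5 without deleted replicate 1, deleted replicate 2 or delta replicate 2, and 1 or 2 lower with any single array left out. The replication clamp Pcna differed by -0.07 (-0.36 to 0.22) and Mki67, a marker of cycling cells, by -0.09 (-0.29 to 0.10), neither called. Of 41 p53 targets and cell cycle brakes, 8 were higher (19.5%) and 11 lower (26.8%), beside 16.7% and 18.9% over all genes tested. Without deleted replicate 1 or delta replicate 2 the higher count was 4, and without deleted replicate 2 it was 5. Pmaip1, a trigger of apoptosis, read 256 and 173 in the arrays titled deleted, 1172 and 1016 in delta and 438 to 1431 in the other 6 arrays, 4.89-fold lower.

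Chromatin genes were called higher in 26.3% (H3K9 methylation) and 23.8% (Polycomb) of the tested members, beside 16.7% over all genes, and lower in 0% and 4.76%, beside 18.9%. Of 19 genes of H3K9 methylation, 5 were higher, 0 lower and 14 not called (median 0.09), namely Ehmt2, the HP1 protein Cbx1 (1.54-fold), the chromodomain protein Cdyl (1.53-fold) and the DNA methyltransferases Dnmt3a (1.56-fold) and Dnmt3b (1.75-fold). The call of Dnmt3b was lost without deleted replicate 1. Of 21 Polycomb genes, 5 were higher and 1, Bmi1, lower, and the higher count was 3 without deleted replicate 1, deleted replicate 2 or delta replicate 2, 3 with the filter at the 60th percentile and 8 with the replicate block. The call of Bmi1 was lost without deleted replicate 2 or either delta array. Rnf2, the ubiquitin ligase of the complex, was 1.60-fold higher. Of 29 germline and pluripotency genes with a probe set, 1 was higher (Sox2, 116 and 100.3 against 1.53 and 8.75) and 2 lower without the filter. Those were Dazl and Rhox5. Rhox5 read 9.70 and 33.0 in the arrays titled deleted, 161 and 150.4 in delta and 7.54 to 126 in the other 6 arrays. Dazl lay near background, at 4.05 and 0.72 in the arrays titled deleted against 19.7 and 23.3 in delta. Its other probe set went the other way, at 4.88 and 11.3 against 2.56 and 2.13. Of 15 housekeeping genes, 2 (Tfrc and Hprt) were lower and none higher, with a median of -0.13; the call of Hprt was lost with any single array left out, without the filter or with a pseudocount of 4.

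The arrays titled deleted also differed from the reconstituted cells. Against the mean of WT, K165A and H1093K, 3330 of 7738 genes were called (43.0%), 1640 higher and 1690 lower, and WT against delta gave 1017 (13.1%). To ask whether genes that differ between WT and delta also differ between the arrays titled deleted and a group without active enzyme, the deleted arrays were set against H1093K, a contrast that shares no array with WT against delta. Over all genes, 17.7% were called higher and 18.4% lower than in H1093K. Of the 438 genes higher in WT than in delta, 182 were called higher in deleted than in H1093K (41.6%), 90 lower (20.5%) and 166 neither, with a median of 0.18. Of the 579 genes lower in WT, 117 were higher (20.2%), 241 lower (41.6%) and 221 neither, with a median of -0.19. Called in both contrasts with the same sign were 654 probe sets, 1100 with the replicate block, 375 and 384 without WT replicate 1 or 2, and 418 and 413 without delta replicate 1 or 2.

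**Figure D5:**
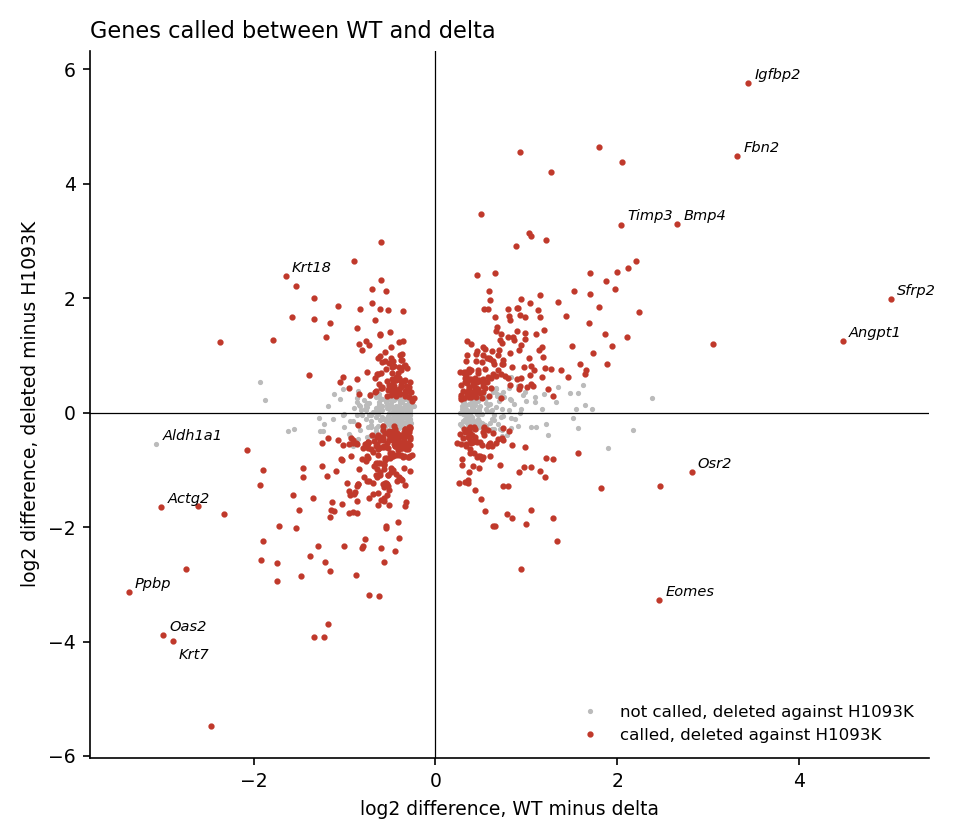
Log2 difference WT minus delta (x axis) and deleted minus H1093K (y axis) for the 1017 genes called between WT and delta, 1 point per gene; red points are also called between deleted and H1093K. Genes lie in all 4 quadrants, with 182 and 241 called genes in the quadrants of like sign and 90 and 117 in those of unlike sign.

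Single genes showed both arrangements. Sfrp2, a secreted antagonist of Wnt signalling, read 414 and 458 in the arrays titled deleted, 484 and 112 in delta, 8822 and 7499 in WT, 7859 and 7053 in K165A and 104 and 91.8 in H1093K, so that deleted and delta overlapped far below WT. Osr2, a transcription factor of mesoderm, read 171 and 202 in the arrays titled deleted, 195 and 240.3 in delta, 1605 and 1648 in WT, 1488 and 1606 in K165A and 368 and 428 in H1093K, and Aldh1a1, a retinoic acid enzyme, 1395 and 1310.2 in the arrays titled deleted, 2049 and 1624 in delta, 198 and 208 in WT, 433 and 191 in K165A and 2159 and 1836 in H1093K. In these 3 genes, which were chosen after their values had been seen, the difference between deleted and delta was not called by limma (adjusted p = 0.195, 0.243 and 0.276), and the WT level lay apart from both. For Krt18 the order was another again, at 2108 and 2035 in the arrays titled deleted, 583 and 553 in delta, 172 and 168 in WT, 182 and 141 in K165A and 384 and 383 in H1093K: highest in deleted and lowest where WT or K165A had been given.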

How the data were processed

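The authors deposited 1 table of scaled array signals, intensities on a linear scale, from GCOS 1.4, per the submitters' processing notes; in the values, each array's trimmed mean is the same. The number of arrays, 2 per group, limits the precision. Gene names came from the platform annotation. Control probe sets and those below the 40th percentile of mean log2(signal + 16) were left out, and a linear model with 1 mean per group over all 10 arrays was fitted with limma 3.58.1 in R 4.3.3 (lmFit, eBayes with trend; 5 residual and 4.73 prior degrees of freedom; Benjamini-Hochberg adjustment). The fit was tested on simulated data. Arrays of the same replicate number moved together in all 10 pairs of groups (correlation of replicate differences 0.234 to 0.527), so a fit with the number as a block was an alternative, beside other pseudocounts, filters, scalings and leaving out each array. Named genes were the 15 largest rises and falls past the test, up to 5 members of smallest p in each of 37 lists, and Ehmt2, Y-linked genes and Xist. The arrays to compare (by title) and the gene lists were chosen with earlier results of these data known, and every other gene named was chosen after its values had been seen.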

Additional observations from a re-analysis of the deposited data

Results flagged for a closer look

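Signals in probe sets outside the comparison stood above the other 8 arrays in both arrays titled deleted. A control probe set named for the B1 repeat, a short interspersed repeat, averaged 7003 in the arrays titled deleted, with 6693 and 7312 in the 2 arrays against 2092 to 3129 in the other 8. The control probe set named for the B2 repeat read 10053 and 10246 against 10391 to 15897. Among probe sets that the filter on dim signal left out, the arrays titled deleted averaged 5131 for Upk3b, 3859 for Mgst1, 3650.0 for Ptn, 3035 for Cdh11 and 2863 for Ptgis. They averaged 1796 for Lpl, a lipase of fat cells and other tissues, 1686 for a Pdgfra probe set, 1529.6 for Bnc1, a zinc finger protein of epithelium and mesothelium, 1438 for Dcn and 1341 for Wt1. They averaged 1303 for Pdzrn3, a ubiquitin ligase, 1209 for Frmd4b and 1049 for Myrf, a transcription factor of myelinating glia. The 13 genes were picked by size from these arrays.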

How the results depend on the processing

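Counts of probe sets called between deleted and delta were 4475 as reported, 4460 and 4521 with a pseudocount of 4 and 64, 4804 without the filter, 3379 with it at the 60th percentile, 4560 with median centring, 4834 with quantile normalization, 3995 with only the 4 arrays compared and 3106 to 3463 with 1 array left out. The replicate block gave 5856, lost no call of a named gene and added 5 (Bmp1, C1ra, Eif2s3y and Flt4 lower, Sdha higher). Probe sets called higher numbered 2115, and 1393 to 1630 with 1 array left out, the lowest without deleted replicate 2. Against the mean of WT, K165A and H1093K, 5464 were called, and 3577 to 5302 with 1 array left out, the lowest again without deleted replicate 2. Probe sets called in both WT against delta and deleted against H1093K with one sign numbered 654, 1100 with the replicate block and 375 to 523 with 1 array left out. Of 188 named genes 166 were called, 151 under every setting that tested them, including all 30 of the largest rises and falls; 15 lost the call with 1 array left out and 0 reversed. Of 39 list counts of 5 or more, 21 moved by over 1.5 times under some setting. Signals near background limit the dim genes, whose log2 differences are understated by the pseudocount.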
